A study of Mus musculus with 6 samples.

Results

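The genes described here are 10 mouse genes of tendon, joint surface and cartilage: Thbs4, Prg4, Cilp, Cilp2, Comp, Tnmd, Scx, Mkx, Chad and Acan. They were listed by name, out of 57180 gene identifiers in the count table, and some were chosen by their very high read counts in tail tip fibroblasts. Levels in tail tip fibroblasts against the other cells are therefore given as a description, with no test. All 10 were found and all 10 passed the filter on low counts, which left 18143 genes. With only the cardiac and lung libraries 6 passed, and Thbs4, Cilp, Tnmd and Chad did not.

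RNA with a poly(A) tail was read from cultured mouse fibroblasts of the tail tip, the heart and the lung. The cells received an adenovirus carrying Cre recombinase (Ad-Cre, the submitters' GATA4 knockout) or green fluorescent protein (Ad-GFP, the control), and were harvested 48 h later. The 6 groups are tail tip Ad-Cre, tail tip Ad-GFP, cardiac Ad-Cre, cardiac Ad-GFP, lung Ad-Cre and lung Ad-GFP, each with 1 library. All 6 carry the genotype label WT, no label names a floxed Gata4 allele, and the sources used here give neither the age nor the sex of the animals nor say whether cells were pooled. With 1 library a group, differences within an origin have no replicate check, and tests over the libraries measure only the spread among these 6.

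Tendon cells are set apart by the transcription factors scleraxis (Scx) and Mohawk (Mkx), which act upstream of collagen genes and of the membrane protein tenomodulin (Tnmd). The matrix they make is bound by thrombospondin-family glycoproteins, among them Thbs4 and cartilage oligomeric matrix protein (Comp). Joint surfaces are coated with lubricin (Prg4), a lubricating glycoprotein from surface chondrocytes and synovial lining cells, and cartilage gains its stiffness against compression from aggrecan (Acan). The mouse tail holds long tendons and joints between vertebrae.

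Total counts were between 26170316 and 33779069 a library. Levels are in CPM, counts per megaread of the library after TMM scaling, and a count of 0 allows up to 3 counts, or 0.0906 to 0.117 CPM. Intervals and such floors cover counting error only, since reads without molecular identifiers are not independent molecules. Gata4 itself had 149 CPM in cardiac Ad-Cre cells and 147 CPM in cardiac Ad-GFP cells, 19.2 and 14.7 CPM in the lung Ad-Cre and Ad-GFP cells, and at most 2 reads in a tail tip library, so its count was not lower in the libraries labelled Ad-Cre, and a count per gene does not show whether an exon was lost. Ad-Cre and Ad-GFP therefore name libraries by their labels below. The 8 fibroblast markers examined were read in every library, with Col1a1 between 1082 and 8643 CPM. Markers of macrophages moved with origin: 8 genes summed to 1064 and 1289 CPM in tail tip, 136 and 217 CPM in cardiac and 14.5 and 18.0 CPM in lung fibroblasts (Ad-Cre before Ad-GFP). Of these 8, 5 were at least 2-fold higher in tail tip than in any other library, and C1qa and C1qb had no read in lung. Osteoblast and osteocyte markers, 4 of 6 tested, summed to 29.0 and 33.1 CPM in tail tip, 2.26 and 2.49 CPM in cardiac and 9.63 and 10.1 CPM in lung. Most of the tail tip sum was the phosphatase gene Alpl, while the bone genes Bglap, Ibsp and Dmp1 stayed at or under 0.0944 CPM there. Sp7 and Phex were highest in lung. Sp7 had 2.24 and 3.74 CPM in tail tip and 5.22 and 4.22 CPM in lung. Phex had 0.393 and 0.283 CPM in tail tip and 3.51 and 5.12 CPM in lung. The part of these cells in the values that follow was not tested. In such bulk libraries, fewer cells of a type and less RNA per cell cannot be told apart.

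Tail tip fibroblasts held nearly all the reads of Thbs4, Prg4, Cilp and Tnmd. Together the 10 genes took 0.766% of all counts in the tail tip Ad-Cre library (95% exact binomial interval 0.763% to 0.769%) and 0.790% in tail tip Ad-GFP (0.787% to 0.794%). Their share was 0.00128% and 0.00122% in cardiac and 0.000562% and 0.000660% in lung libraries, Ad-Cre before Ad-GFP. Of the 10, 7 had a lowest tail tip library at least 2-fold above the highest cardiac or lung library (Thbs4, Prg4, Cilp, Tnmd, Comp, Mkx and Scx). The same held for 9.83% of all 18143 genes, and since tail tip counts chose some of the members, nothing is read from that comparison. Cilp2 and Chad overlapped with other libraries, and Acan was highest in the heart.

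**Figure D1:**
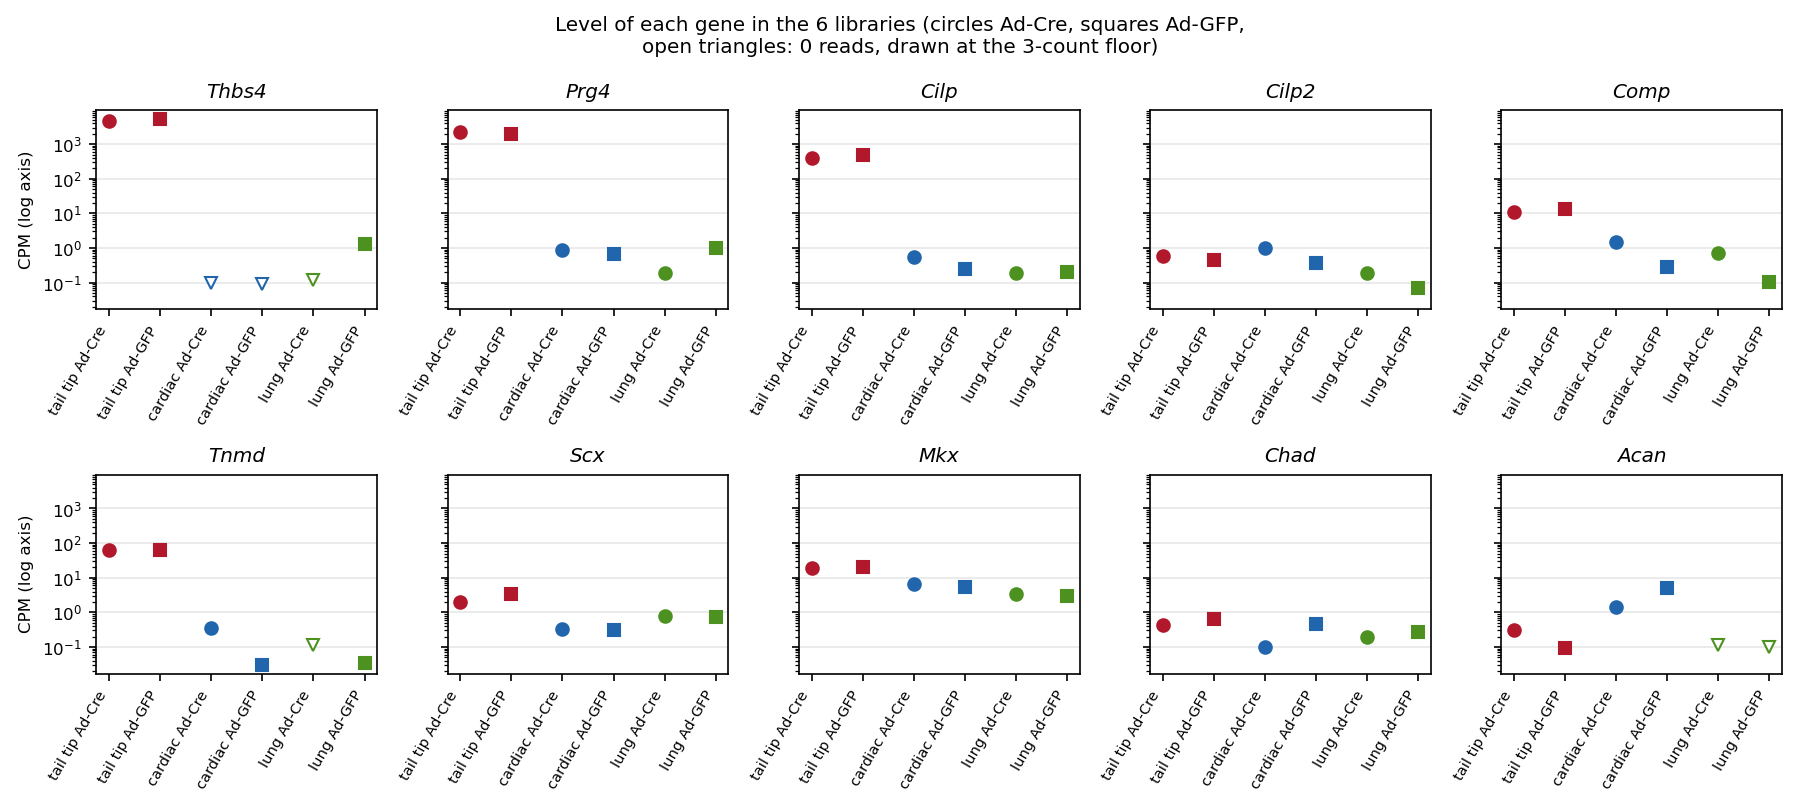
CPM (log axis) of each of the 10 genes in the 6 libraries, with Ad-Cre as circles, Ad-GFP as squares and open triangles for 0 reads, drawn at the 3-count floor. Thbs4, Prg4, Cilp and Tnmd are far above every other library in both tail tip libraries, and Acan is highest in the cardiac ones.

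Thbs4, a thrombospondin that shapes the collagen matrix of tendon and muscle, was among the most abundant messages of tail tip cells. It had 156779 reads (4736 CPM) in tail tip Ad-Cre and 164964 reads (5190 CPM) in tail tip Ad-GFP. The cardiac Ad-Cre, cardiac Ad-GFP and lung Ad-Cre libraries held 0 reads of it, and lung Ad-GFP held 39 (1.34 CPM). Per kilobase of exon it ranked 7 in tail tip Ad-Cre and 6 in tail tip Ad-GFP among 51933 genes with a known length. Over the 2 libraries of each origin, tail tip was 6965-fold above lung (counting interval 5095 to 9795) and at least 104200-fold above cardiac, with 3 counts over the cardiac pair as the floor.

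Prg4, the lubricin gene, had 74718 reads (2257 CPM) in tail tip Ad-Cre and 61811 reads (1945 CPM) in tail tip Ad-GFP. In cardiac cells it had 27 and 22 reads, and in lung cells 5 and 29 (Ad-Cre before Ad-GFP). The tail tip pair was 2708-fold above cardiac (2048 to 3661) and 3390-fold above lung (2426 to 4896). In the mouse annotation used for lengths, Prg4 shares 204 exon bases with the nuclear pore gene Tpr on the opposite strand. Tpr had between 453 and 736 CPM in every library, and with no strand setting given, the few cardiac and lung reads of Prg4 cannot be told apart from reads of Tpr.

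Cilp, which encodes cartilage intermediate layer protein, a matrix protein that binds growth factors of the TGF-beta and IGF families, followed the same order. It had 12885 reads (389 CPM) in tail tip Ad-Cre and 15068 reads (474 CPM) in tail tip Ad-GFP, against 17 and 8 reads in cardiac and 5 and 6 in lung libraries. Tail tip was 1087-fold above cardiac (736 to 1680) and 2145-fold above lung (1199 to 4298). Its relative Cilp2 did not share this pattern. Cilp2 had 20 and 14 reads in tail tip, 31 and 12 in cardiac and 5 and 2 in lung libraries, so tail tip and cardiac overlapped, and the ratio of tail tip to cardiac was 0.769 (0.475 to 1.23).

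Tnmd, the gene of tenomodulin and a late marker of tendon cells, had 2066 reads (62.4 CPM) in tail tip Ad-Cre and 2011 reads (63.3 CPM) in tail tip Ad-GFP. Cardiac Ad-Cre held 11 reads, cardiac Ad-GFP 1, lung Ad-Cre 0 and lung Ad-GFP 1. The tail tip pair was 330-fold above cardiac (189 to 640), and the single lung read leaves a ratio of 3442 with an interval of 617 to 136000. Among the 18143 tested genes, ranked by the gap between the lowest tail tip and the highest other library on the log2 CPM scale, Thbs4 came 1, Prg4 2, Cilp 3 and Tnmd 17.

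**Figure D2:**
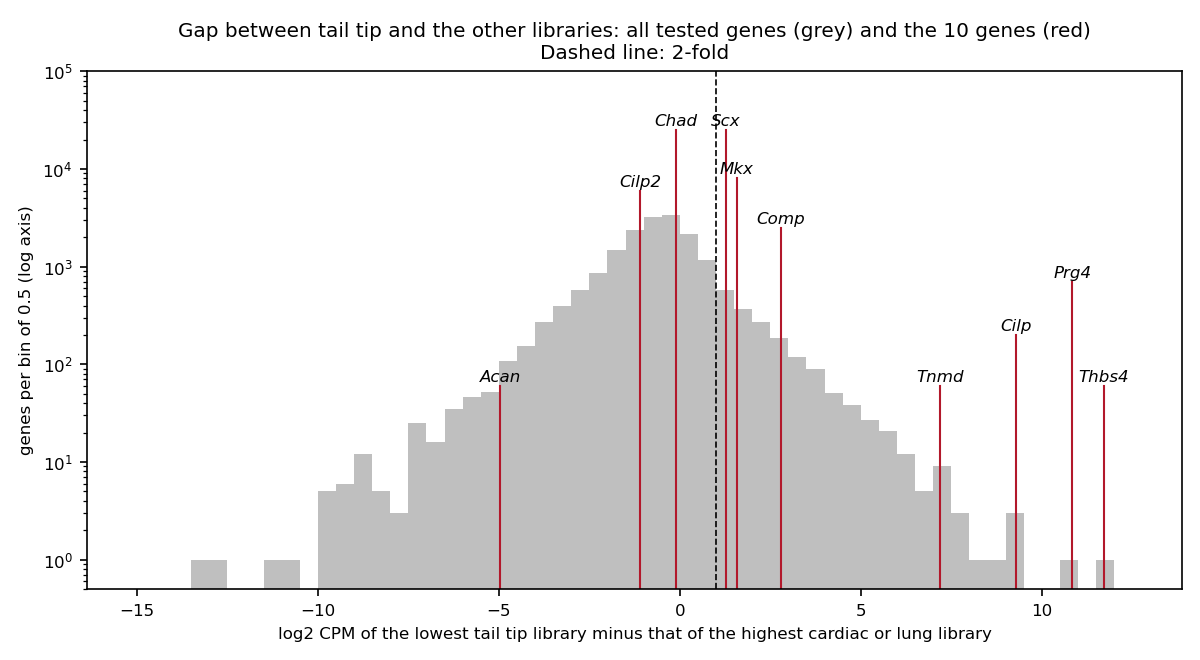
Gap on the log2 CPM scale between the lowest tail tip library and the highest cardiac or lung library for all 18143 tested genes (grey bars, counts on a log axis), with the 10 genes as red lines whose heights carry no value. Thbs4 at 11.72, Prg4 at 10.84 and Cilp at 9.29 lie at the far right, Mkx at 1.57 and Scx at 1.26 just past 2-fold, and Acan at -4.96 far to the left.

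Promoter sequence from RefSeq was used for 6 of the 10 genes, the others being Prg4, Comp, Scx and Mkx. The 250 bases before the start of transcription, as RefSeq places it in GRCm38.p6 (the counts were made with mm39), are shown for 3 genes with a high tail tip level and for Acan, which had its highest level in the heart. Capitals mark E-boxes (CANNTG, which reads alike on both strands), the class of site that scleraxis and other basic helix-loop-helix factors bind. The windows are Thbs4 chr13:92794819-92795068 (minus strand), Cilp chr9:65264930-65265179 (plus strand), Tnmd chrX:133850758-133851007 (plus strand) and Acan chr7:79052976-79053225 (plus strand).
Thbs4: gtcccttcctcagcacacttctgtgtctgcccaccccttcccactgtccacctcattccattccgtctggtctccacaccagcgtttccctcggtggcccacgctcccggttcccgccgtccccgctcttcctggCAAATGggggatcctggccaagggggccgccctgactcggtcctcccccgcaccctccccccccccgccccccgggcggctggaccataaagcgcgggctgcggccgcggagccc
Cilp: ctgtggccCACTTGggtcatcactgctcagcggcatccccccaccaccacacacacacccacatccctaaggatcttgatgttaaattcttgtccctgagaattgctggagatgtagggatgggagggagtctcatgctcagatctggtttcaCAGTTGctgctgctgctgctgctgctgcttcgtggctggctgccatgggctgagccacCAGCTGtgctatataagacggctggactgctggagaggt
Tnmd: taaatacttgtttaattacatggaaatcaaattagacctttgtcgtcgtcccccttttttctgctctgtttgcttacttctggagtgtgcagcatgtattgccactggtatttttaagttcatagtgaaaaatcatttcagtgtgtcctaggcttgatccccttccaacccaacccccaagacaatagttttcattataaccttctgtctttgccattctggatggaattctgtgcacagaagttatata
Acan: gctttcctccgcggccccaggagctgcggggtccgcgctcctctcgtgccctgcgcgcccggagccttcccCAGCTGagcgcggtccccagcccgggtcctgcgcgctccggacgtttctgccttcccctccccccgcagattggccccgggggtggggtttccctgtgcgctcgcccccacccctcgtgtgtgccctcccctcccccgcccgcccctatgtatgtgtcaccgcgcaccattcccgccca
Cilp held 3 E-boxes in this window, Thbs4 1, Acan 1 and Tnmd 0, and 66.2% of 32851 windows of the same length held at least 1. The SOX core ACAAT, searched on both strands with no overlap with an E-box, was present once in Tnmd, 69 bases before the start, and in none of Thbs4, Cilp or Acan, against 27.7% of all windows. The windows of the 4 genes held no TATAAA (12.4% of all windows), TGANTCA (6.75%) or TGACGTCA (1.55%) on either strand. These matches are letters in a window and carry no evidence of binding.

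Comp, whose protein bridges collagen fibrils in tendon and cartilage, stood at a far lower level. Its counts were 357 and 420 in tail tip (10.8 and 13.2 CPM), 46 and 9 in cardiac and 19 and 3 in lung libraries, Ad-Cre before Ad-GFP. Both tail tip values lay above the rest, by 13.7-fold over cardiac (10.4 to 18.4) and 29.8-fold over lung (19.6 to 47.9). Its closest relative in the list, Thbs4, was the highest member in tail tip by reads per length, and Comp was not.

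The 2 transcription factors of tendon were read at lower levels than Thbs4, Prg4, Cilp and Tnmd in tail tip cells. Mkx, a homeobox factor of tendon collagen genes, had 637 and 643 reads in tail tip (19.2 and 20.2 CPM), 197 and 175 in cardiac (6.45 and 5.38 CPM) and 88 and 85 in lung libraries (3.43 and 2.92 CPM). The 3 origins did not overlap. Tail tip was 3.35-fold above cardiac (2.98 to 3.76) and 6.25-fold above lung (5.33 to 7.36). Scx had 65 and 111 reads in tail tip (1.96 and 3.49 CPM), 10 and 10 in cardiac and 20 and 22 in lung libraries. Tail tip was 8.55-fold above cardiac (5.37 to 14.4) and 3.54-fold above lung (2.51 to 5.08). Scx lies within the ribosome biogenesis gene Bop1, on the opposite strand and with no exon in common. Bop1 had 73.9 and 76.5 CPM in tail tip, 82.1 and 126 CPM in cardiac and 170 and 154 CPM in lung libraries. It was lowest in tail tip, where Scx was highest, and both genes were higher in lung than in cardiac libraries. The part of unspliced Bop1 RNA in the Scx counts was not tested.

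Of the cartilage genes, Acan and Chad were close to the limit of detection in tail tip cells. Acan, the aggrecan core protein, had 10 and 3 reads in tail tip, 43 and 160 in cardiac (1.41 and 4.92 CPM) and 0 and 0 in lung libraries. Tail tip was at 0.0623 of the cardiac level (0.0326 to 0.109). Chad, the gene of chondroadherin, a leucine-rich protein that links chondrocytes to collagen, had 14 and 20 reads in tail tip, 3 and 15 in cardiac and 5 and 8 in lung libraries, with tail tip and cardiac overlapping. Chad lies within Acsf2, on the opposite strand and with no exon in common, and Acsf2 had between 7.04 and 17.1 CPM, so its part in the few Chad reads cannot be told apart.

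Per kilobase of exon, the order of levels in tail tip was Thbs4 (1440 CPM per kilobase in Ad-Cre and 1578 in Ad-GFP), Prg4 (527 and 454), Cilp (91.6 and 112) and Tnmd (46.1 and 46.8). Then came Mkx (4.70 and 4.94 CPM per kilobase), Comp (3.64 and 4.45), Scx (0.978 and 1.74), Chad (0.252 and 0.375), Cilp2 (0.140 and 0.102) and Acan (0.0405 and 0.0126). No neighbours in that order overlapped between the pairs of libraries, although the last 3 rest on 20 reads or fewer a library. In cardiac cells Mkx led with 1.58 and 1.31 CPM per kilobase, and the next, Acan (0.189 and 0.659) and Comp (0.508 and 0.0932), overlapped. In lung cells Mkx led again with 0.838 and 0.713, followed by Scx with 0.389 and 0.376, which the lung Ad-GFP value of Thbs4 (0.407) exceeded.

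Cardiac and lung fibroblasts were compared with edgeR's quasi-likelihood test, a contrast that the choice by tail tip counts did not use. Acan and Mkx were higher in cardiac cells, 2 of the 10 members. In the same test 20.8% of all 18143 genes were higher and 17.6% lower, 38.4% in all, so 2 of 10 is not a larger share than that of genes in general. Thbs4, Cilp, Tnmd and Chad entered this test through their tail tip counts, and their cardiac and lung values rest on few reads. All 8 macrophage markers were higher in cardiac than in lung cells in the same test, and the 5 mesothelial markers (4 higher, 1 lower) summed to 123.6 and 51.9 CPM in cardiac and 195.5 and 154.8 CPM in lung libraries. Their part in the values below was not tested.

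Acan was at least 58.8-fold higher in cardiac than in lung cells, with 3 counts over the lung pair as the floor (edgeR adjusted p = 0.00613). Both cardiac libraries had it and neither lung library did. Mkx was 1.87-fold higher by pooled CPM, and the fitted log2 fold change was 0.90 with an SE of 0.24 (edgeR adjusted p = 0.0231). The Mkx call was lost in 5 of 12 alternative fits, with adjusted p between 0.0843 and 0.151 in those 5: without tail tip Ad-Cre (0.0853), tail tip Ad-GFP (0.0882), lung Ad-Cre (0.0843) or lung Ad-GFP (0.151), and with only the cardiac and lung libraries (0.11). Acan kept an adjusted p of at most 0.00736 in all 12.

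The other 8 members did not pass. Cilp2 had a log2 fold change of 2.34 (SE 0.85, edgeR adjusted p = 0.0677) and did not overlap between the origins. Tnmd, with 12 cardiac reads and 1 lung read (ratio 10.4, 1.54 to 445.5), was at 3.10 (SE 1.41, edgeR adjusted p = 0.124) and Scx at -1.26 (SE 0.59, edgeR adjusted p = 0.135). For Scx both cardiac values lay under both lung values, as they did for Bop1, the gene on the opposite strand. The part of Bop1 RNA in this difference was not tested. Cilp, Comp, Prg4 and Chad had values between 0.08 and 1.06. Thbs4 was at least 15.0-fold lower in cardiac cells, with 3 counts over the cardiac pair as the floor, but missed the threshold (edgeR adjusted p = 0.062). Its lung reads came from the Ad-GFP library alone, so the lung and cardiac libraries overlapped at 0. It passed as lower in cardiac cells in 5 of 11 alternatives, which included leaving out either tail tip library, cardiac Ad-Cre or lung Ad-Cre. Without lung Ad-GFP no cardiac or lung library held a read of it. Tnmd passed in 4 of 11 alternatives: with no filter on low counts (edgeR adjusted p = 0.0134), without tail tip Ad-Cre (0.0214) or tail tip Ad-GFP (0.0215), and without cardiac Ad-GFP. Thbs4 and Tnmd entered this test through their tail tip counts, which also take part in the fit, so nothing is read from these passes. Prg4 passed in 1 of 12, without lung Ad-GFP (2.06, edgeR adjusted p = 0.00682). Leaving out either cardiac library leaves 1 of that origin. Cilp, Cilp2, Comp and Scx each passed in 1 alternative, which was such a fit, so nothing is read from those passes. Without cardiac Ad-GFP the log2 fold changes were 1.57 for Cilp, 2.59 for Cilp2, 1.76 for Comp and 4.01 for Tnmd. Without cardiac Ad-Cre they were -1.54 for Scx and -0.42 for Comp.

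Ad-Cre was then set against Ad-GFP in 1 model that holds origin constant and asks for a shift shared by tail tip, cardiac and lung cells. None of the 10 genes passed edgeR's test, in which 0% of the 18143 genes passed in either direction and the lowest adjusted p over all genes was 0.9996. Before adjustment, 0 members and 367 genes had p under 0.05, and DESeq2 called 0 members and 4 genes. The largest fitted values were those of Comp (log2 fold change 1.13, SE 0.61), Cilp2 (1.06, SE 0.66) and Chad (-1.02, SE 0.74). Mkx was at 0.13 (SE 0.19), Cilp at -0.04 (SE 0.26) and Prg4 at -0.09 (SE 0.35). Thbs4 was at -0.74 (SE 0.63), and it passed when either tail tip library was left out (edgeR adjusted p = 1.42e-06 without tail tip Ad-Cre and 1.24e-06 without tail tip Ad-GFP). In those fits its call rests on the 0 and 39 reads of the lung Ad-Cre and Ad-GFP libraries.

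Within tail tip fibroblasts the abundant members differed little between the viruses. The ratio of Ad-Cre to Ad-GFP was 0.913 for Thbs4 (counting interval 0.906 to 0.919), 1.16 for Prg4 (1.15 to 1.17), 0.821 for Cilp (0.802 to 0.841), 0.987 for Tnmd (0.927 to 1.05) and 0.951 for Mkx (0.851 to 1.06). Comp had a ratio of 0.816 (0.707 to 0.942) and Scx of 0.562 (0.408 to 0.771). Prg4 therefore stood on the other side of 1 from Thbs4, Cilp and Comp, beyond counting error. Only Acan, with 10 and 3 reads, was past 2-fold on the log2 CPM scale with a prior count of 2, and its counting interval of 0.824 to 18.1 includes 1. In this pair 3.1% of all tested genes were past 2-fold (1.53% higher and 1.58% lower), and their SD was 0.39 on the log2 scale.

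In cardiac fibroblasts 5 of the 10 members were past 2-fold, where 20.3% of all tested genes were (11.3% higher and 9.07% lower). Higher in the Ad-Cre library stood Comp, with 46 reads against 9 in Ad-GFP (ratio 5.44, 2.63 to 12.7), Cilp2, with 31 against 12 (2.75, 1.37 to 5.88), and Tnmd, with 11 against 1 (11.7, 1.70 to 504). Lower stood Acan, with 43 reads against 160 (ratio 0.286, 0.200 to 0.403), and Chad, with 3 against 15 (0.213, 0.0395 to 0.753). All 5 are low genes, while Mkx, the member with most cardiac reads, had a ratio of 1.20 (0.973 to 1.48). Tnmd and Chad passed the filter on low counts only with the tail tip libraries. Nothing is therefore read from the 5 of 10 beside the 20.3%. The summed markers of other cells also differed within this pair: mesothelial 123.6 CPM in Ad-Cre and 51.9 CPM in Ad-GFP, skeletal muscle 28.9 and 10.6 CPM, and macrophage 136 and 217 CPM. Most of the skeletal muscle sum was Des (18.7 and 5.69 CPM) and Acta1 (7.11 and 2.89 CPM). Myod1 (3 and 17 reads) and Myog (5 and 11 reads) ran the other way, as did Lrrn4 (9.43 and 32.2 CPM) among the mesothelial markers. The part of such cells in these ratios was not tested.

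In lung fibroblasts 3 of the 10 were past 2-fold, beside 7.69% of all tested genes (4.87% higher and 2.82% lower). Comp was higher in Ad-Cre, with 19 reads against 3 (ratio 7.19, 2.12 to 38.0). Thbs4 was at least 11.4-fold higher in Ad-GFP, with 39 reads there and 0 in Ad-Cre, and Prg4 had 5 reads in Ad-Cre against 29 in Ad-GFP (ratio 0.196, 0.0592 to 0.512). Thbs4 passed the filter on low counts only with the tail tip libraries, so nothing is read from the 3 of 10 beside the 7.69%. With a prior count of 0.5 the number past 2-fold was 5, Cilp2 and Tnmd being added. The 7.69% of all genes belongs to a prior count of 2, so the 5 are not set against it. Mkx had a ratio of 1.18 (0.863 to 1.60) and Scx of 1.03 (0.535 to 1.98).

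**Figure D3:**
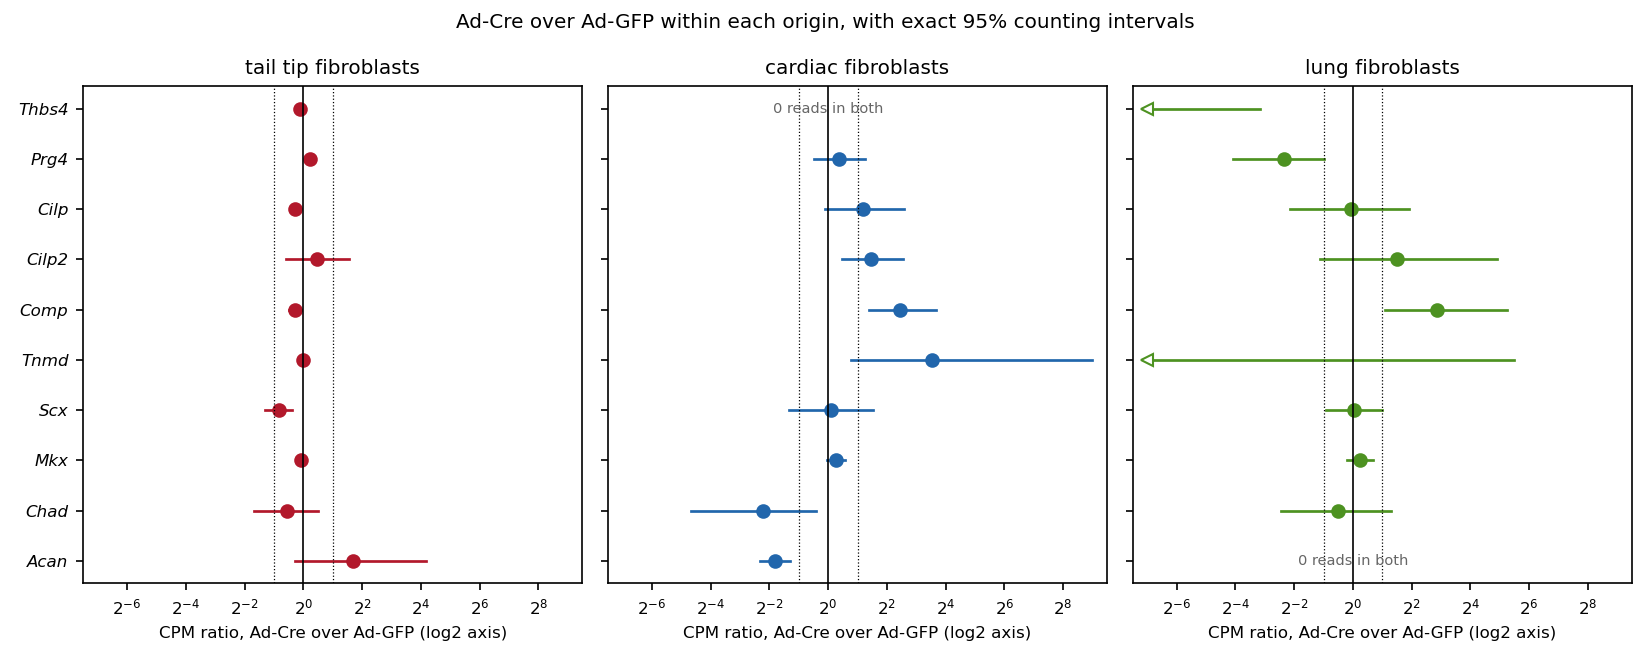
Ratio of CPM in Ad-Cre over Ad-GFP for each gene within tail tip, cardiac and lung fibroblasts (log2 axis, dotted lines at 2-fold), with exact 95% counting intervals and arrows where Ad-Cre had 0 reads. Tail tip ratios of the abundant genes lie near 1, and Comp lies above 1 in cardiac (5.44) and lung (7.19) cells and below it in tail tip (0.816).

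Related genes that the list does not contain were then counted with the same rules. These lists were drawn up with earlier results of these data known. Of 14 other tendon and ligament genes 13 were tested, and 6 had tail tip at least 2-fold above every other library, beside 9.83% of all genes, with a median gap of 0.57 against -0.58 over all genes. They included Fmod, a small proteoglycan of collagen fibrils, with 162 and 183 CPM in tail tip, 3.77 and 3.54 in cardiac and 0.156 and 0.0343 in lung libraries, and Kera, a related proteoglycan (4.53 and 4.84 CPM in tail tip, at most 0.0390 CPM elsewhere), followed by Col12a1, Col5a1 and Tppp3. Egr1, a factor that acts on tendon collagen genes, ran the other way, with 69.5 and 80.8 CPM in tail tip, 147 and 128 in cardiac and 350 and 225 in lung libraries, and Tnc did not reach 2-fold.

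Cartilage genes split. Of 23 in the list 15 were tested, 4 had tail tip at least 2-fold higher and 1, Matn3, had it lower (4.16% of all genes were lower by this rule), and the median gap was -0.28. The 4 were Hapln1, a link protein that ties aggrecan to hyaluronan (12.5 and 12.9 CPM in tail tip, 0.262 and 0.461 in cardiac, 0 in both lung libraries), and the weakly read Epyc, Col10a1 and Col9a2. Those 3 and Matn3 averaged under 1 CPM and are named after their values were seen. Sox9, the master factor of cartilage, was lower in tail tip, with 36.2 and 46.4 CPM, than in cardiac (99.5 and 64.5) or lung (78.5 and 57.2) libraries. Its partner Sox5 overlapped between origins (5.86 to 10.9 CPM over all libraries), and Sox6 had 5.74 and 5.32 CPM in tail tip, 3.70 and 3.63 in cardiac and 0 in lung. Col2a1, the main cartilage collagen, stayed at or under 3.41 CPM everywhere, and Cytl1 and Snorc had no read in any library.

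Of 14 joint and synovial lining genes 11 were tested. The lining markers Cd55 (64.5 and 44.6 CPM in tail tip, 2.34 to 19.9 elsewhere) and Pdpn (249 and 212 CPM, 16.3 to 97.4 elsewhere) had tail tip at least 2-fold higher, Htra1 had it lower, and the median gap was -1.02. Gdf5, the ligand of forming joints, had at most 0.393 CPM in any library. Creb5, a factor known from cattle and mice for its action on Prg4, had 7.64 and 8.37 CPM in tail tip, 8.25 and 10.1 in cardiac and 17.7 and 15.3 in lung libraries. Its level was highest in lung, and its part in the Prg4 level was not tested. Of the 15 relatives of the members by family, 10 were tested, and Thbs2 (1307 and 1345 CPM in tail tip, 50.0 to 129.5 elsewhere) and Irx3 had tail tip at least 2-fold higher. Thbs1, Thbs3 and the aggrecan relative Vcan did not. Cnmd, the closest relative of Tnmd, had at most 0.156 CPM. Of 6 proteases known to cut aggrecan or COMP, all tested, Mmp3 (604 and 503 CPM in tail tip, 2.23 to 47.4 elsewhere), Mmp13 and Adamts4 had tail tip at least 2-fold higher.

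**Figure D4:**
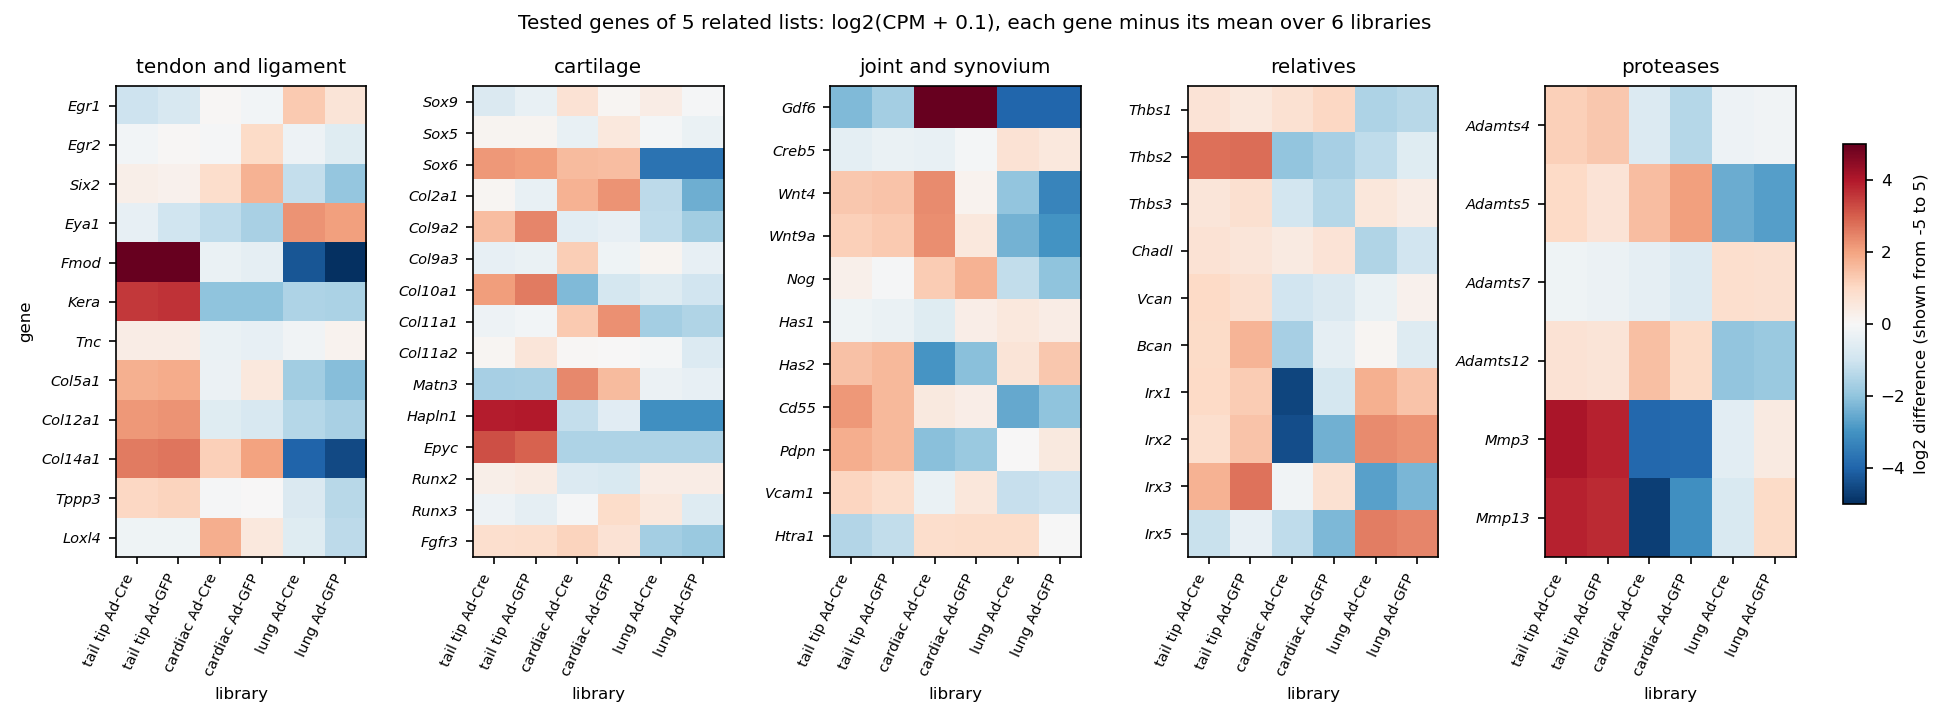
Tested genes of the 5 related lists, as far as they are reported here, in the 6 libraries, as log2(CPM + 0.1) minus each gene's own mean (red higher, blue lower, colours limited to -5 and 5). Fmod, Kera, Hapln1, Epyc, Mmp3 and Mmp13 are highest in both tail tip libraries, Gdf6 in both cardiac ones, and Egr1 in both lung ones.

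Between cardiac and lung cells, edgeR called 7 of 13 tendon and ligament genes higher and 2 lower, 6 and 1 of 15 cartilage genes, 6 and 3 of 11 joint genes, 3 and 6 of 10 relatives and 2 and 4 of 6 proteases (38.4% of all genes were called). In the cartilage list Col11a1 was higher in cardiac cells (log2 fold change 3.41, SE 0.25, edgeR adjusted p = 0.000105), as were Col2a1 (4.72, SE 0.82, adjusted p = 0.00445), Fgfr3 and Hapln1. Sox6 had 231 cardiac and 0 lung reads, at least 66.9-fold higher (edgeR adjusted p = 0.000448). Gdf6, a growth factor of joints, had 6044 cardiac and 0 lung reads, at least 1750-fold higher (edgeR adjusted p = 1.31e-05). In the tendon list Col14a1 (6.21, SE 0.37, edgeR adjusted p = 4.55e-05), Fmod (5.26, SE 0.40, adjusted p = 0.000126) and Six2 (3.06, SE 0.54, adjusted p = 0.0048) were higher and Eya1 (-3.72, SE 0.33, adjusted p = 0.000224) lower. Adamts5, the main aggrecanase of mouse cartilage, was higher in cardiac cells (4.46, SE 0.26, edgeR adjusted p = 4.24e-05), as Acan was, while Mmp3 (-3.95, SE 0.33, adjusted p = 0.000188) and Mmp13 (-4.04, SE 0.51, adjusted p = 0.00114) were lower. No gene of these lists passed the test of Ad-Cre over the 3 origins.

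The genes whose profiles over the 6 libraries were most like those of the members were found by the root mean square difference of log2 CPM, each gene centred on its own mean. For Mkx the nearest were Arhgdib (0.08), Npc2 (0.09) and Sema6c (0.09), and for Scx they were Ptpre (0.24), C2 (0.25) and Cpxm1 (0.25). Tnmd lay nearest to Adam33 (0.38), Galnt13 (0.41) and Cilp (0.78), and Cilp to Tnmd, Prg4 (0.88) and Dio3 (0.90). Prg4 came next to Cilp, Pcp4l1 (1.13) and Hoxc12 (1.37), and Thbs4 next to Prg4 (2.14), Abi3bp (2.60) and Pcp4l1 (2.75). Comp lay nearest to Wfdc1 (0.40), Prrt1 (0.42) and Arsi (0.50). Acan lay nearest to Hs3st1 (0.51), Mtus2 (0.53) and Ptprz1 (0.54), which were also highest in the heart, Ptprz1 with 2.59 and 3.90 CPM there. Cilp2 and Chad averaged under 1 CPM and were left out. With 6 libraries of 3 origins such distances rest mostly on origin.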

How the data were processed

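The authors deposited whole-number read counts per Ensembl gene, without normalisation, for 6 libraries. The submitters' processing notes name mm39 and STAR 2.0.7, with no role. No source used here gives the counter, annotation, strand setting or filters. The labels state a column name for each library, and all columns were paired with libraries on that basis (0 unpaired). Symbols (51884 of 57180 identifiers) and exon lengths came from GENCODE M21, an earlier build, so no coordinates of counted genes are given. Promoters came from RefSeq (GRCm38.p6).

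Genes with low counts were removed with filterByExpr (minimum count 10), and 1 additive model of origin and virus was fitted over all 6 libraries with edgeR 4.0.16 in R 4.3.3 (TMM, robust quasi-likelihood, 2 residual degrees of freedom, checked on simulated data). P-values are two-sided, adjusted by Benjamini-Hochberg over the 18143 genes, with a threshold of 0.05. Each SE was worked back from the test, as the absolute log2 fold change divided by the square root of its F statistic. Within an origin and for tail tip against the rest no test was made. Ratios have exact conditional binomial 95% intervals, and log2 CPM a prior count of 2. At least 2-fold means past 2-fold on that scale.

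Members and lists were chosen with earlier results of these data known. Examples from related lists were those with the largest changes whose CPM averaged 1 or more, plus known regulators of members; not all are printed, and any others were named after their values were seen. Alternatives were DESeq2 1.42.0, its size factors, library totals, no filter, a prior count of 0.5, other models and leaving out each library. The values of 1 gene of the tendon and ligament list are not reported here, and the list's counts include it.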

Additional observations from a re-analysis of the deposited data

Results flagged for a closer look

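Comp and Prg4 had ratios of Ad-Cre to Ad-GFP on opposite sides of 1 in different origins, with counting intervals that leave out 1. Each origin has 1 library a virus, so the difference between origins was not tested.

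The Comp ratio was 5.44 in cardiac cells (46 reads in Ad-Cre, 9 in Ad-GFP) and 7.19 in lung cells (19 and 3 reads), against 0.816 in tail tip cells (357 and 420 reads). The Prg4 ratio was 1.16 in tail tip cells (74718 and 61811 reads) and 0.196 in lung cells (5 and 29 reads). On the log2 scale the tail tip ratio of Prg4 was 0.22, inside the SD of 0.39 over all genes of that pair. The few lung reads of Prg4 cannot be told apart from reads of Tpr.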

How the results depend on the processing

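No paired analysis was possible because all 6 libraries carry the same replicate number, beyond the matching of Ad-Cre with Ad-GFP within each origin that the model of origin and virus already makes. For Ad-Cre over the 3 origins, 0 genes became 141 without a filter, 4 with DESeq2 and 11 to 109 when a library was left out, and the members called ranged from 0 to 1 (Thbs4). Between cardiac and lung, 2 members became 4 without a filter. All genes called went from 6967 of 18143 to 7814 of the 35114 genes with at least 1 read, a smaller share. With only the cardiac and lung libraries 1 was called, of the 6 members that passed the filter there. When either tail tip library was left out 3 were called, beside 5936 genes in all, a fit for which no share of genes is given here. The counts of 4 and 3 include Thbs4 and Tnmd, which entered through their tail tip counts. The number also moved when a cardiac library was left out, which leaves 1 of that origin. Past 2-fold within tail tip were 5.32% of genes with a prior count of 0.5 and 6.53% without a filter, in place of 3.1%. In lung the members went to 5 with a prior count of 0.5, a setting for which no share of genes is given here. The genes past 2-fold in lung went to 13.6% without a filter, in place of 7.69%. The 7 members high in tail tip were 7 whichever library was left out, beside 10.2% to 12.3% of genes, or 5.94% without a filter.

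Some values not called as reported changed sign in other fits, and the cause was not tested. For Ad-Cre, Cilp was at 0.0073 with DESeq2. Leaving out a library gave log2 fold changes for Ad-Cre between -0.28 and 0.71 (Cilp), -0.65 and 0.26 (Prg4), -0.50 and 0.063 (Scx), -0.045 and 2.30 (Tnmd) and -1.78 and 1.59 (Acan). Between cardiac and lung these ran from -0.97 to 0.72 for Chad, -0.42 to 2.50 for Comp and -0.52 to 2.06 for Prg4, whose highest value, without lung Ad-GFP, was called (edgeR adjusted p = 0.00682). Genes with under about 20 reads a library, Chad and Cilp2 first, limit what these depths can show.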
